A study of Mus musculus with 8 samples.

Results

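The proteasome genes described here are all genes whose symbols begin with Psma, Psmb, Psmc, Psmd, Psme, Psmf or Psmg. They were reached through the transcript accession of each non-control probe. On the array they were 50 of 18217 named genes, measured by 71 of 41174 probes. By function, 48 of the 50 encode subunits, activators, an inhibitor or assembly chaperones of the proteasome. Psmc3ip, a cofactor of meiotic recombination, and Psme3ip1, a protein that binds the activator subunit encoded by Psme3, share the prefix without being subunits.

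The proteasome is the barrel-shaped protease that degrades most short-lived and damaged proteins of the cytosol and nucleus. Its core particle is built from rings of alpha and beta subunits, and some of the beta subunits carry the active sites inside the barrel. The regulatory particle caps the core. Its base unfolds ubiquitin-tagged proteins with a ring of ATPases, and its lid removes the ubiquitin chain. In muscle the ubiquitin-proteasome system is known for breaking down contractile proteins during fasting and disuse.

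Transcripts were quantified in hearts from male mice of the inbred strain C57BL/6J, aged 9 weeks, with 1 array per heart. Of the 8 hearts, 4 were from satiated animals and 4 from animals kept without food, but with water, for 2 days. The diet before that was a standard dry pellet for both groups, and the labels name no genetic alteration. The labels number the samples without stating that each came from a separate animal, so each p-value reflects the spread among samples only.

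The arrays lay on 2 slides, with hearts 1 and 2 of each group on slide 1 and hearts 3 and 4 on slide 2. No spot was saturated, and 54.4% to 68.9% of probes were well above background, fewer on slide 2. The number of arrays limits the precision of every value. A level below is the log2 processed intensity relative to the 75th percentile of its array, and a difference is the mean of the fasted hearts minus that of the satiated hearts, with its standard error (SE, 4 hearts per group). Levels of different probes cannot be set against each other. A gene was called where limma's moderated test gave an adjusted p (Benjamini-Hochberg, over all 26480 probes tested) under 0.05, and each gene was represented by its brightest tested probe.

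The labelled tissue was borne out by 10 of 10 measured cardiomyocyte markers, whose mean level was 7.41 to 7.90 over the 8 hearts, and 1 of which, Actc1, was lower after the fast. Satiated heart 1 stood apart from the other 7 in most markers of skeletal muscle: its Tnnt3 level was 3.43, against -4.43 to -2.61 elsewhere. Of the 7 tested, Myh2, Tnni2, Mylpf and Actn3 were also highest in this heart. Acta1 (4.85) and Myh4 (7.57) did not set it apart, since both lay within the range of the other hearts. Of 8 fibroblast markers 5 were lower and 1 was higher in the fasted hearts, with a mean level of 3.39 to 3.70 in the satiated and 2.47 to 3.03 in the fasted hearts. None of 9 macrophage, 8 endothelial and 7 T and NK cell markers was called in limma (1, 1 and 0 at an unadjusted p under 0.05), and Cd8a and Cd79a were too dim to be tested (well above background on fewer than 4 of the 8 arrays). Of 4 neutrophil markers 3 were higher, with a mean level of -3.67 to -2.95 in the satiated and -2.66 to -1.08 in the fasted hearts. Of 4 tested B cell markers, Ms4a1 was higher (1.55, adjusted p = 0.0176) and Cd74 lower (-0.88, adjusted p = 0.0319), with a mean level of -1.54 to -1.20 in the satiated and -1.37 to -0.24 in the fasted hearts. Of 7 smooth muscle and pericyte markers only Acta2 was called (-0.50, adjusted p = 0.0301), with a mean level of 3.51 to 3.64 in the satiated and 3.54 to 3.84 in the fasted hearts. The part of these cell types in the proteasome results was not tested. In whole tissue, fewer cells of a type and less RNA per cell cannot be told apart.

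Of the 50 proteasome genes, 6 rose and 4 fell after the fast, and 40 were not called. The 6 that rose were Psma7, Psmc1, Psmc6, Psmd7, Psmd11 and Psmd12, and 5 of them encode parts of the regulatory particle. The 4 that fell were Psmb8, Psme1, Psmg3 and Psmc3ip, of which none is a constitutive subunit. The 6 are 12% of the members, where 10.5% of all 13816 tested genes were called higher, and the 4 stand beside 11.7% of all genes called lower (22.2% in either direction). All 4 fasted hearts lay above all 4 satiated hearts in 11 members and below them in 9, where 14.3% and 16.1% of all genes did so. The share that rose is near that of all genes, so the count over the whole family is no result about it. The median difference over the 50 was 0.12, and over all genes -0.02.

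Among the 17 genes of the regulatory particle with these symbols, 5 rose and none fell (29.4% higher). Of the 17 differences 16 were above 0, and the median was 0.37. Adrm1 (0.55) and Sem1 (-0.22), neither called, were counted among the partners outside these symbols. Of all genes, 48.2% had a difference above 0. The core particle without its inducible and thymus subunits has 15 genes. Of these 1 rose, none fell, 9 were above 0, and the median was 0.08, against -0.0041 after quantile normalization. At an unadjusted p under 0.05 in limma there were 9 regulatory genes and 1 core gene, all higher. The share of all genes at that threshold was not counted, and 10.5% were higher even at the stricter adjusted one. The 4 core assembly chaperones (1 lower) all had differences below 0, with a median of -0.29. So did the inducible Psmb8, Psmb9 and Psmb10 (1 lower), with a median of -0.39. The thymus subunit Psmb11 gave -0.17 ± 0.58 and was well above background on 2 arrays of each group. That these sets differ from one another was not tested.

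**Figure D1:**
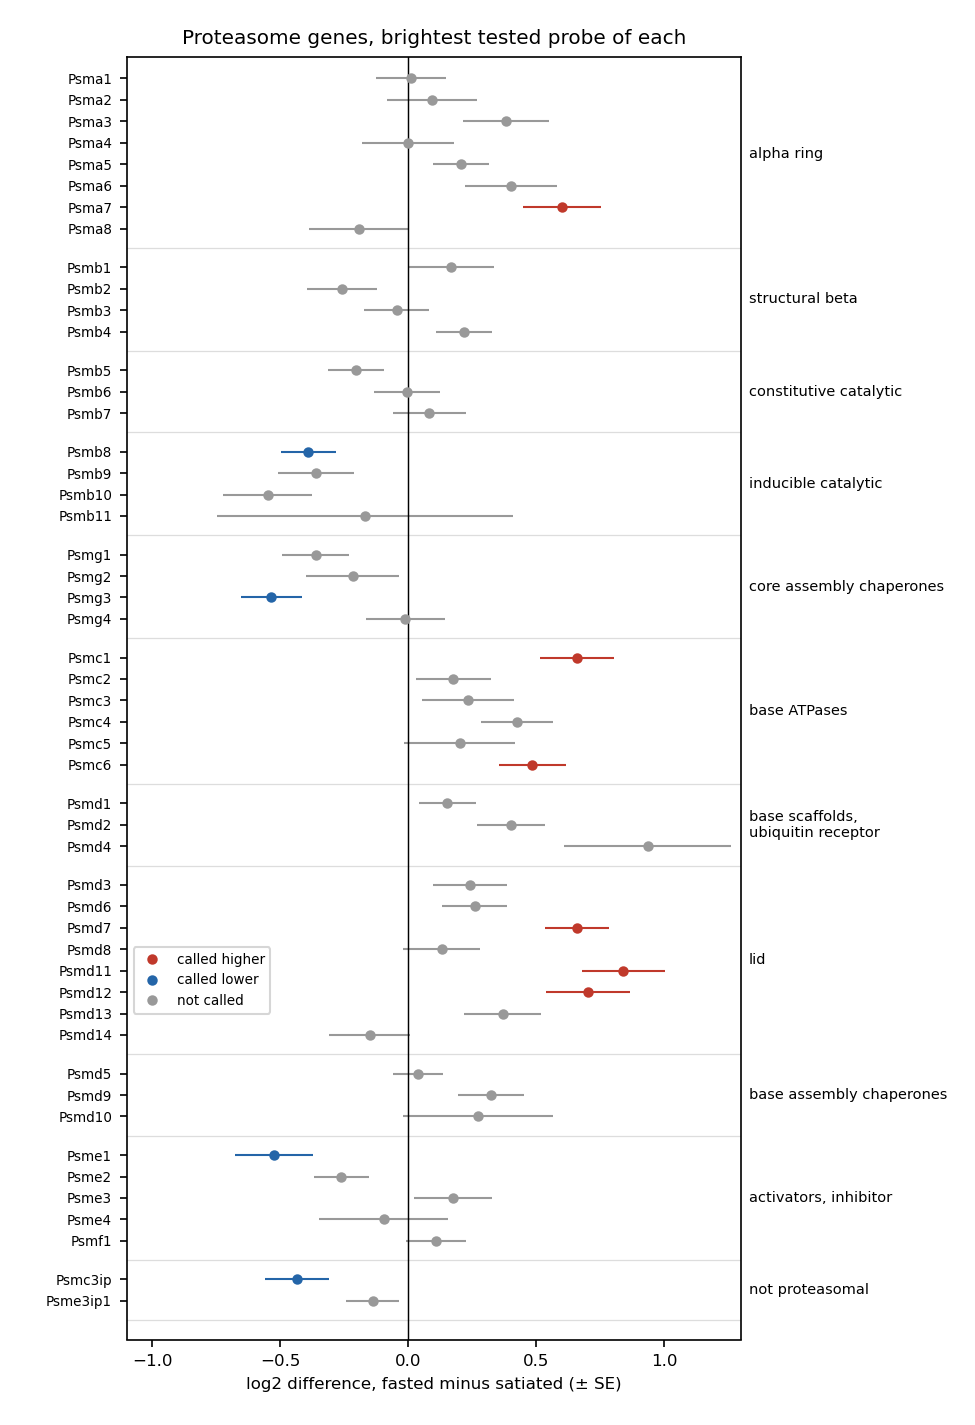
Log2 difference between fasted and satiated hearts (x axis, point with SE, 4 hearts per group) for the brightest tested probe of each of the 50 genes, grouped by subcomplex. Red points were called higher and blue points lower at an adjusted p under 0.05. Red points sit among the base ATPases, the lid and Psma7, and 16 of 17 regulatory particle genes lie right of 0.

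Slide made a difference to how many genes passed. With the slide as a block, 12 members were higher and 8 lower, where 18.6% and 20.9% of all genes were. With the replicate number as a block they were 11 and 7, beside 16.9% and 19.2%. In both fits 9 of the 17 regulatory genes and 2 of the 15 core genes were higher. Without satiated heart 1, the sample with skeletal muscle transcripts, 3 members were higher and 1 lower, where 7.72% and 8.44% of all genes were, and the regulatory median was 0.37. Psmd11, Psmd7 and Psmc1 kept their calls without any 1 of the 8 hearts and with dim probes left in. The other 7 calls were lost with dim probes left in.

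**Figure D2:**
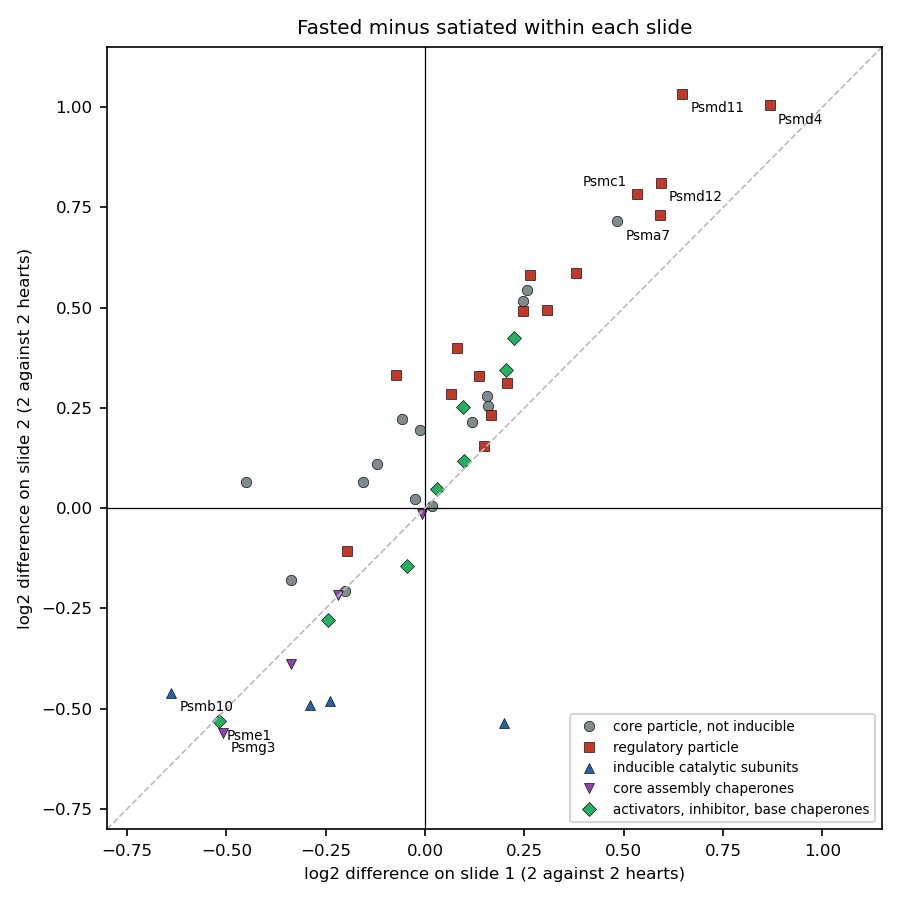
Log2 difference on slide 1 (x axis) against slide 2 (y axis), each from 2 fasted and 2 satiated hearts, for the 48 proteasome genes by subcomplex, with a dashed line where both are equal. Regulatory particle genes (red squares) lie mostly in the upper right, and the core assembly chaperones, Psmb8, Psmb9 and Psmb10 in the lower left. The marker of the inducible subunits also covers the thymus subunit Psmb11. The regulatory median was 0.25 on slide 1 and 0.49 on slide 2.

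Upstream sequence of 5 of these genes is shown first because the transcription factor Nfe2l1, the best-known activator of proteasome genes, binds antioxidant response elements there. The stretches are from RefSeq, build GRCm38.p6, 5′ to 3′ on the strand of the gene, and cover bases 250 to 151 before the annotated start for Psmd12 and Psmc6 and bases 100 to 1 before it for the others. The stretch of Psmd12 is at chr11:107479278-107479377 (plus strand), Psmc6 at chr14:45329574-45329673 (plus), Psmb5 at chr14:54617996-54618095 (minus), Psmb6 at chr11:70525257-70525356 (plus) and Psmd11 at chr11:80428515-80428614 (plus). Capitals mark a match to TGACNNNGC, the core of the antioxidant response element, on either strand. Psmd12 and Psmc6 rose, Psmb5 and Psmb6 were not called, and Psmd11, with the largest difference of the called genes, has no match in its window.
Psmd12: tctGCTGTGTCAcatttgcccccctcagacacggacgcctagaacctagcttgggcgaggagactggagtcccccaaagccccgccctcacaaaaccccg
Psmc6: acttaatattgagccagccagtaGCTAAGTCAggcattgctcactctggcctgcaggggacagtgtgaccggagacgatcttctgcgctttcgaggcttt
Psmb5: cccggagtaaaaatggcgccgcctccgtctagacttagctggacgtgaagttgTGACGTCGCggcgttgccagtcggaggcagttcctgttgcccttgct
Psmb6: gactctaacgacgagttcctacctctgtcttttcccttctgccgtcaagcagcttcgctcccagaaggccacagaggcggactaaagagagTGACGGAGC
Psmd11: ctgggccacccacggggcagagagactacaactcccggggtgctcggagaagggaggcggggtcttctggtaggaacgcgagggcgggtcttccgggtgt

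Windows of 250 bases before to 50 after the start were given for 42 of the 50 genes, in 46 windows. TGACNNNGC, searched on both strands, was in 6 of these 46 windows (13%) and in 12.4% of all 32851 windows. Those 6 belong to Psmd9, Psme4, Psmb6, Psmd12, Psmc6 and Psmb5. CCAAT, on both strands, was in 16 of 46 (34.8%) and in 37.4% of all windows. The forkhead core TGTTTAC was in 0 of 46 and in 3.65% of all. The shares for the first and second motif are close to those of all genes, and a match in a window does not show that a factor binds there.

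In the lid, Psmd11, a scaffold subunit that contacts both the lid and the core, had the largest difference of the called genes. Its level was 5.30, 5.14, 4.81 and 4.86 in satiated hearts 1 to 4 and 6.01, 5.73, 6.08 and 5.65 in fasted hearts 1 to 4. Every fasted heart was above every satiated one. The difference was 0.84 ± 0.16, or 1.79-fold (adjusted p = 0.00957), and it was 0.65 on slide 1 and 1.03 on slide 2.

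Psmd7 encodes the lid subunit that pairs with the deubiquitinating enzyme Psmd14. Its level was 3.38, 3.42, 3.34 and 3.29 in the satiated and 4.17, 3.81, 4.17 and 3.93 in the fasted hearts. These ranges did not overlap, and the satiated hearts lay close together. Psmd7 rose by 0.66 ± 0.12, or 1.58-fold (adjusted p = 0.0084). A second probe for the same transcript gave 0.70 ± 0.15 (adjusted p = 0.013).

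Psmd12 encodes another scaffold subunit of the lid, and its 3 probes did not move alike. The brightest was at 5.28, 5.26, 5.48 and 5.43 in the satiated and 6.01, 5.72, 6.44 and 6.10 in the fasted hearts. It rose by 0.70 ± 0.16 (adjusted p = 0.0188). The next probe was at 1.82, 1.71, 1.80 and 1.59 against 2.50, 2.28, 2.75 and 2.38, and rose by 0.75 ± 0.14 (adjusted p = 0.00728). The third probe went the other way with no overlap: 0.72, 0.82, 0.67 and 0.63 in the satiated and 0.49, 0.23, 0.08 and 0.19 in the fasted hearts, a fall of 0.46 ± 0.13 (adjusted p = 0.0344). All 3 carry the same transcript accession, and where each lies along the transcript was not analysed here. The mean of the 3 was 0.33 higher and not called (adjusted p = 0.0779). The call of the brightest probe was also lost without satiated heart 1 (adjusted p = 0.0507) or satiated heart 2 (0.0565).

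The other 5 lid genes were not called. Psmd13, a lid scaffold subunit, was 0.37 higher (adjusted p = 0.122, with 0.0226 for the slide and 0.0383 for the replicate block). Differences were 0.24 for Psmd3, 0.26 for Psmd6 and 0.13 for Psmd8, all structural subunits. Psmd14, the enzyme that cuts ubiquitin chains from substrates, was the 1 regulatory gene with these symbols below 0. Its probes gave -0.15 ± 0.16 and -0.23 ± 0.22, both with overlapping groups.

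**Figure D3:**
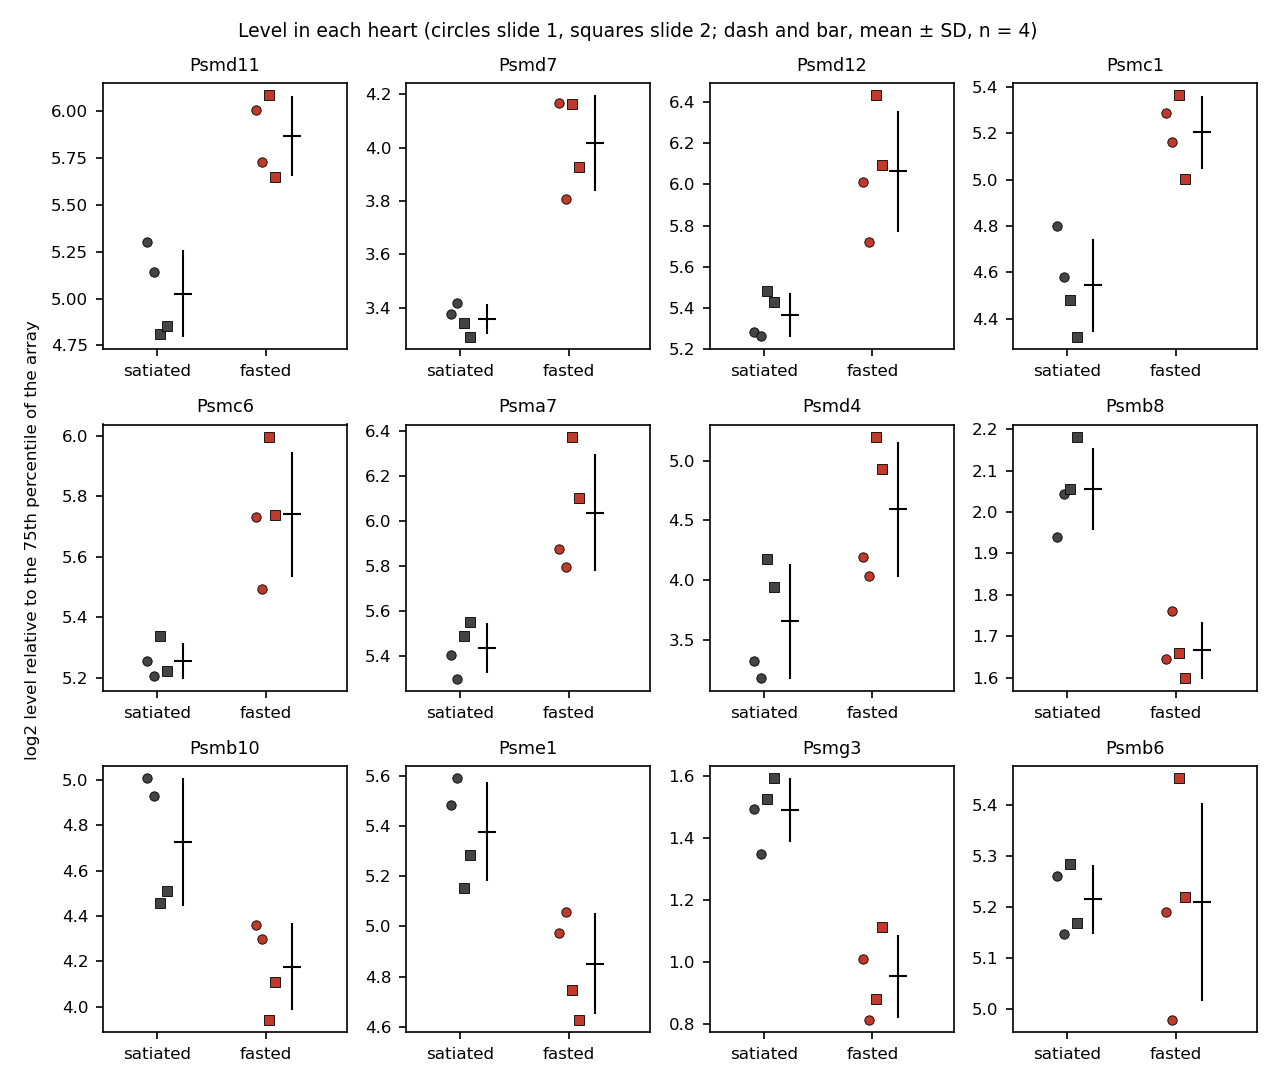
Level of 12 genes in each heart (y axis, log2 relative to the 75th percentile of the array), satiated left and fasted right, circles on slide 1 and squares on slide 2, with mean and SD (n = 4). Levels of Psmd11, Psmd7, Psmd12, Psmc1, Psmc6 and Psma7 do not overlap between groups, those of Psmd4 and Psmb6 do, and Psmb8, Psmb10, Psme1 and Psmg3 are lower in every fasted heart.

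All 6 ATPases of the base had differences above 0, and 2 rose. Psmc1 had levels of 4.80, 4.58, 4.48 and 4.32 in the satiated and 5.29, 5.16, 5.36 and 5.003 in the fasted hearts. The groups did not overlap, and Psmc1 rose by 0.66 ± 0.14 (adjusted p = 0.015). Psmc6 was at 5.26, 5.204, 5.34 and 5.22 in the satiated and 5.73, 5.49, 6.00 and 5.74 in the fasted hearts. It too rose without overlap, by 0.48 ± 0.13 (adjusted p = 0.0336). The Psmc6 call was lost without any 1 of the 4 satiated hearts, fasted heart 1 or fasted heart 4 (adjusted p up to 0.0887), with normexp background correction (0.0819) and with scaling to the array median (0.0791). Psmc4 was 0.42 higher without overlap and missed the threshold (adjusted p = 0.0665, with 0.0228 for the slide and 0.0437 for the replicate block). Psmc2, Psmc3 and Psmc5 had differences of 0.18, 0.23 and 0.20 with overlapping groups.

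The base also holds the large scaffolds Psmd1 and Psmd2 and the ubiquitin receptor Psmd4, and none of these was called. Psmd4 had the largest difference of all 50 genes, and was singled out after its values were seen. Its level was 3.32, 3.18, 4.18 and 3.94 in the satiated and 4.20, 4.04, 5.2 and 4.93 in the fasted hearts. The groups overlapped only across slides, since both groups were higher on slide 2. The difference was 0.94 ± 0.33 (adjusted p = 0.0768), with 0.87 on slide 1 and 1.005 on slide 2, and the adjusted p was 0.00108 for the slide and 0.00362 for the replicate block. Psmd2 was at 4.38, 4.30, 4.40 and 4.39 against 4.76, 4.53, 5.04 and 4.74, with no overlap. Its difference of 0.40 ± 0.13 missed the threshold (adjusted p = 0.065), and passed with the slide (0.0231) and the replicate block (0.0349), with quantile normalization (0.037) and without fasted heart 2 (0.0417). Psmd1 differed by 0.15.

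The 3 chaperones that assemble the base had differences of 0.04 (Psmd5), 0.32 (Psmd9) and 0.27 (Psmd10), and none was called. For Psmd9 the brighter probe was higher in every fasted heart (adjusted p = 0.116, and 0.0452 with the slide as a block), while its second probe gave -0.21 with overlapping groups, and the mean of both gave 0.06 (adjusted p = 0.743).

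In the alpha ring, which forms the gate of the core, Psma7 rose. Its level was 5.40, 5.30, 5.49 and 5.55 in the satiated and 5.87, 5.79, 6.37 and 6.10 in the fasted hearts. No fasted heart fell into the satiated range, and the difference was 0.60 ± 0.15 (adjusted p = 0.0266). The call was lost without any 1 of the 4 satiated hearts or fasted heart 4 (adjusted p up to 0.0765) and with scaling to the array median (0.0653). Psma3 differed by 0.38 (adjusted p = 0.147, with 0.0454 for the slide and 0.0416 for the replicate block), Psma6 by 0.40 and Psma5 by 0.21, the last without overlap. Psma1, Psma2 and Psma4 had differences of 0.01, 0.09 and -0.00078. Psma8, the testis form of an alpha subunit, was at -0.19 with overlap.

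In the beta ring, 0 of the 7 constitutive genes were called in limma, and 0 at an unadjusted p under 0.05. Of the structural beta subunits, Psmb4 was 0.22 ± 0.11 higher with no overlap (5.68, 5.66, 5.68 and 5.64 against 5.92, 5.74, 6.02 and 5.86; adjusted p = 0.195). Psmb1 differed by 0.17, Psmb2 by -0.26 and Psmb3 by -0.05. The active sites of the constitutive core lie in Psmb5, Psmb6 and Psmb7.

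Psmb5, the chymotrypsin-like site, was at 4.32, 4.37, 4.18 and 4.23 in the satiated and 4.11, 4.17, 4.05 and 3.95 in the fasted hearts. Each fasted heart was lower, but by -0.20 ± 0.11 (adjusted p = 0.229). Psmb6, the caspase-like site, was at 5.26, 5.15, 5.28 and 5.17 against 5.19, 4.98, 5.45 and 5.22, and Psmb7, the trypsin-like site, at 4.15, 4.11, 3.83 and 3.74 against 4.08, 4.06, 4.17 and 3.84. Both overlapped, with differences of -0.01 ± 0.13 (adjusted p = 0.984) and 0.08 ± 0.14 (adjusted p = 0.739).

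The inducible subunits Psmb8, Psmb9 and Psmb10 take the places of Psmb5, Psmb6 and Psmb7 in the immunoproteasome, a form of the core known from immune cells and from tissue exposed to interferon. Psmb8 was at 1.94, 2.04, 2.06 and 2.18 in the satiated and 1.65, 1.76, 1.66 and 1.599 in the fasted hearts. It fell with no overlap, by 0.39 ± 0.11 (adjusted p = 0.0361), and its second probe gave -0.40 ± 0.17 (adjusted p = 0.135, with 0.014 for the slide and 0.0244 for the replicate block). The call was lost without any 1 of the 4 satiated hearts, fasted heart 1 or fasted heart 4 (adjusted p up to 0.11), with scaling to the array median (0.0733) and with the mean of its probes (0.0546).

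Psmb10 was at 5.01, 4.93, 4.46 and 4.51 in the satiated and 4.36, 4.30, 3.94 and 4.11 in the fasted hearts. Every fasted heart was lower, and the difference of -0.55 ± 0.17 just missed the threshold (adjusted p = 0.0552). It passed with the slide (0.00319) and the replicate block (0.0112), with normexp (0.0143) and with scaling to the array median (0.0279). Psmb9 was at 0.93, 1.17, 0.85 and 1.26 against 0.70, 0.93, 0.48 and 0.66. Its groups overlapped, with -0.36 ± 0.15 (adjusted p = 0.123, and 0.0441 with the replicate block). Psmb11, the thymus subunit, was well above background on 2 arrays of each group and gave -0.17 ± 0.58.

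Whether an inducible subunit and its constitutive counterpart changed unequally was tested on their ratio within each array, in which a single scaling factor per array cancels. The log2 ratio of Psmb10 over Psmb7 was 0.86, 0.82, 0.63 and 0.77 in the satiated and 0.28, 0.24, -0.23 and 0.27 in the fasted hearts. It fell in every fasted heart, by 0.63 ± 0.15 (adjusted p = 0.0197), by 0.58 on slide 1 and 0.68 on slide 2. The call was lost without satiated heart 1 (adjusted p = 0.0535), 2 (0.057) or 4 (0.0546). Psmb9 over Psmb6 (-0.35 ± 0.22, adjusted p = 0.289) and Psmb8 over Psmb5 (-0.19 ± 0.12, adjusted p = 0.312) were not called, and both overlapped between groups.

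**Figure D4:**
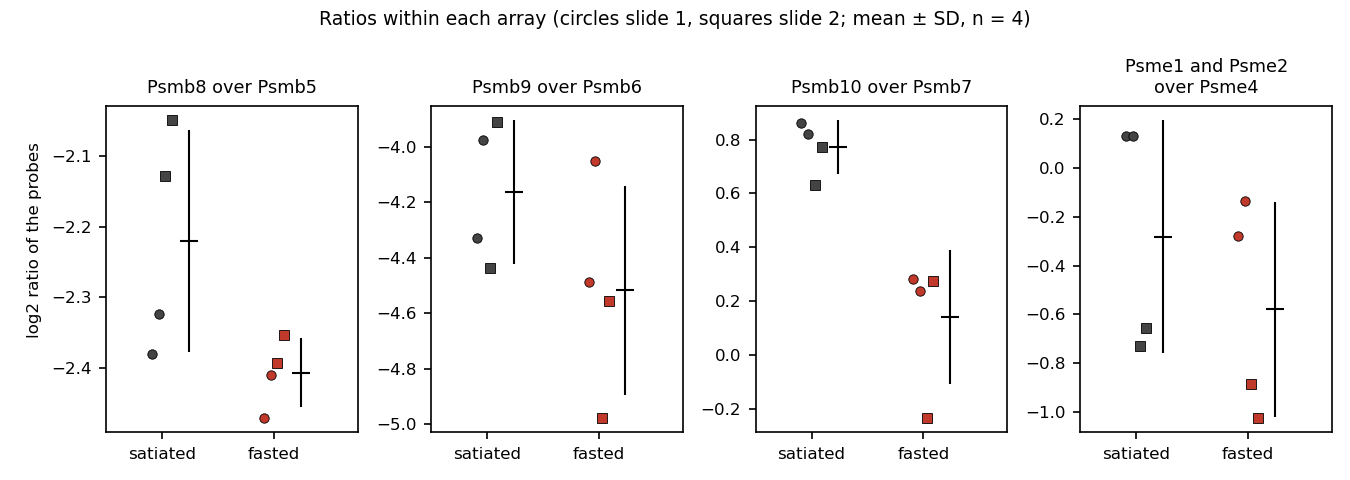
Log2 ratio within each array (y axis) of 3 inducible subunits over their constitutive counterparts and of the mean of Psme1 and Psme2 over Psme4, by group, circles on slide 1 and squares on slide 2, with mean and SD (n = 4). Only Psmb10 over Psmb7 separates the groups, at 0.63 to 0.86 in the satiated and -0.23 to 0.28 in the fasted hearts.

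The alternative activators dock on the core in place of the regulatory particle. Psme1, which with Psme2 forms the interferon-inducible activator ring, was at 5.48, 5.59, 5.15 and 5.28 in the satiated and 4.97, 5.06, 4.75 and 4.63 in the fasted hearts. It fell without overlap by 0.53 ± 0.15 (adjusted p = 0.0421). The call was lost without satiated heart 1, 2 or 4 or fasted heart 1, 3 or 4 (adjusted p up to 0.112). Its partner Psme2 was at 5.21, 5.26, 5.35 and 5.35 against 4.98, 5.002, 5.17 and 4.98. Each fasted heart was lower, but -0.26 ± 0.11 missed the threshold (adjusted p = 0.123), and passed with the slide as a block (0.0356) and quantile normalization (0.0453), though not with the replicate block (0.0616).

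Psme3 forms the nuclear activator ring by itself. It was at 2.69, 2.27, 2.23 and 2.23 against 2.66, 2.49, 2.65 and 2.32, with overlap and a difference of 0.17 ± 0.15 (adjusted p = 0.468). Psme4, a single large nuclear activator, was at 5.22, 5.29, 5.98 and 5.98 against 5.25, 5.17, 5.84 and 5.82. In both groups it was higher on slide 2, and the difference was -0.10 ± 0.25 (adjusted p = 0.836). The ratio of the Psme1 and Psme2 mean over Psme4 differed by -0.30 ± 0.29 on the log2 scale (adjusted p = 0.519), and passed with the slide as a block (0.0247). Psmf1, the proteasome inhibitor, was measured by 3 probes of which none was called: 0.11 ± 0.12, 0.75 ± 0.54 and -0.58 ± 0.20, the last lower in every fasted heart. The probe at 0.75 differed by 0.72 on slide 1 and 0.77 on slide 2, and passed with the slide (0.0015) and the replicate block (0.00562).

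The chaperones that assemble the core, Psmg1 to Psmg4, all had differences below 0. Psmg3 was at 1.49, 1.35, 1.52 and 1.59 in the satiated and 1.01, 0.81, 0.88 and 1.11 in the fasted hearts. It fell without overlap by 0.53 ± 0.12 (adjusted p = 0.0162), a call lost only without satiated heart 4 (0.0548) among the leave-one-out fits. Psmg1 was 0.36 lower in the fasted hearts (-0.36 ± 0.13, adjusted p = 0.0891), with no overlap, and passed with the slide (0.00718) and the replicate block (0.0224). Psmg2 gave -0.22 (adjusted p = 0.451, and 0.0495 with the slide as a block) and Psmg4 -0.01. Psmc3ip, no subunit, fell from -0.27, -0.33, -0.47 and -0.49 to -0.68, -0.75, -0.84 and -1.04, by 0.44 ± 0.13 (adjusted p = 0.0404), and that call was lost without any 1 of the 8 hearts (adjusted p 0.057 to 0.104).

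**Figure D5:**
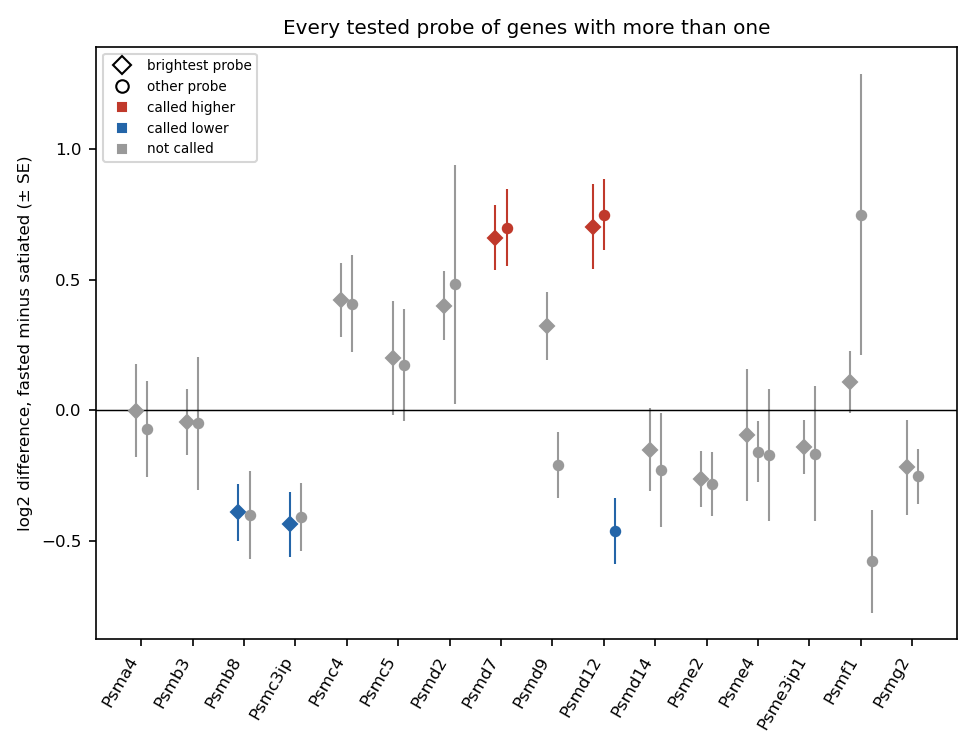
Log2 difference with SE (y axis, 4 hearts per group) for every tested probe of the 16 genes with more than 1, diamonds for the brightest probe and circles for others. In 13 genes all probes point the same way, and Psmd9, Psmd12 and Psmf1 have probes on both sides of 0.

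Of the 71 probes, 69 were tested, 8 were called higher and 5 lower, where 10.3% and 10.4% of all tested probes were (20.8% in either direction). Of the 16 genes with more than 1 tested probe, 13 had probes that shared a direction, and Psmd9, Psmd12 and Psmf1 did not. The 2 untested probes, of Psmb11 and Psme3ip1, were not well above background on any array.

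Many proteasome genes also differed in the same direction between hearts of the same group. Fasted heart 3 was above fasted heart 4, on the same slide, for all 17 regulatory and all 15 core genes and for 44 of the 50 members (88%), where it was above for 57.9% of all genes. The median gap was 0.27 for the regulatory and 0.27 for the core genes, against 0.08 over all genes. The gap was not limited to proteasome genes. All cardiomyocyte markers except Actc1 (6.272 against 6.594) were also higher in fasted heart 3 than in fasted heart 4. Myh6 was at 9.134 against 8.904, and Ryr2 at 4.511 against 4.173. The proteasome genes were not set against genes of similar brightness, so whether the gap is particular to them was not tested. Fasted heart 1 was above fasted heart 2 for 36 of the 50 (72%), and for 47.6% of all genes. Among the satiated hearts, heart 1 was above heart 2 for 34 (68%, against 51.3% of all genes) and heart 3 above heart 4 for 32 (64%, against 52.6%). Without fasted heart 3, the core median was -0.05 and the regulatory median 0.30. The core median was also below 0 on slide 1 alone (-0.01).

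Among the partners of the proteasome outside these symbols, none of 11 tested rose. Unadjusted, with p under 0.05 in limma, 2 were higher and 2 lower. Of these partners 1 fell, and their median was 0.16. Shares over all genes, at the adjusted threshold, were 10.5% called higher and 11.7% lower. Ube3c, a ubiquitin ligase that acts on the proteasome, was at 0.78, 0.89, 0.58 and 0.55 in the satiated and 0.20, 0.03, -0.80 and -0.17 in the fasted hearts. It fell by 0.89 ± 0.22 (adjusted p = 0.0239), a call lost without satiated heart 1 (0.0591) or 2 (0.0681), and the mean of its probes gave -0.53 (0.0386). With the slide as a block 5 partners were higher and 1 lower, where 18.6% and 20.9% of all genes were. The 5 were the ubiquitin receptor Adrm1 (0.55), the deubiquitinating enzymes Uchl5 (0.48) and Usp14 (0.31), Ecpas (0.34) and Akirin2 (0.32). Zfand5 differed by -0.70 and was lower in every fasted heart, but was not called (adjusted p = 0.123, and 0.0553 with the slide as a block).

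Of 8 tested regulators of proteasome gene transcription, 3 rose and none fell (0 at an unadjusted p under 0.05 in limma). Over all genes, 10.5% were called higher and 11.7% lower. Mafk was at 0.49, 0.30, 0.58 and 0.44 against 2.01, 1.318, 2.18 and 1.73, and Maff at 1.04, 0.55, 1.16 and 1.16 against 2.60, 1.70, 2.68 and 2.66. Both encode small Maf proteins, the partners of Nfe2l1 and Nfe2l2 on DNA, and rose by 1.36 ± 0.19 (adjusted p = 0.0028) and 1.43 ± 0.25 (adjusted p = 0.00677). Ngly1, the deglycosylating enzyme that acts on Nfe2l1 protein, rose by 0.74 ± 0.11 (adjusted p = 0.00361), and by 0.47 when its probes were averaged (adjusted p = 0.019). The mRNA of Nfe2l1 itself differed by 0.06 (adjusted p = 0.807). Nfe2l2 (-0.35 ± 0.51), Keap1 (-0.20), Mafg (-0.09) and Nfe2l3 (0.03) were not called either. For Nfe2l2, fasted heart 3 was at 2.12, against 3.87 to 4.77 in the other fasted hearts. Its difference was 0.09 on slide 1 and -0.78 on slide 2. The median of the 8 regulators was 0.04.

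Of 11 tested ubiquitin shuttles and parts of the Vcp segregase, which hands tagged proteins to the proteasome, 2 rose and none fell. At an unadjusted p under 0.05 in limma 5 were higher and 0 lower, and the median was 0.27. At the stricter adjusted threshold, 10.5% of all genes were called higher and 11.7% lower. Their share at the unadjusted one was not counted. The shuttle Ubqln1 rose by 1.05 ± 0.19 (adjusted p = 0.0069), from 1.52, 1.55, 1.82 and 1.72 to 2.62, 2.25, 3.09 and 2.84. Nploc4, a cofactor of Vcp, rose by 0.66 ± 0.12 (adjusted p = 0.00837), and Vcp itself differed by 0.24 (adjusted p = 0.256).

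Among genes of class I antigen processing, Erap1, a peptide-trimming protease, rose by 0.38 ± 0.11 (adjusted p = 0.0349), and stayed called without 1 of the 8 hearts only when that heart was fasted heart 3. The peptide transporter Tap1 and the light chain B2m, with differences of 0.46 and 0.05, were not called.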

How the data were processed

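Total RNA of 8 hearts was labelled with Cy3 and hybridised to 1-colour Agilent arrays, per the labels. The deposited scanner tables hold linear spot intensities, background-subtracted by Agilent Feature Extraction, per the file headers (version 10.5.1.1 on slide 1 and 10.7.3.1 on slide 2, where the submitters' processing notes name 9.1). The deposited file of the series holds the authors' linear ratios, and the sources used here do not say how they were made. For 99.7% of 41174 shared probes it matched the intensities within 0.01 log2 after 1 factor per array and 1 constant per probe. Its direction is therefore that of the intensities, and its column medians are 0.876, 0.901, 0.954 and 0.980 for satiated hearts 1 to 4 and 0.887, 0.860, 1.02 and 0.960 for fasted hearts 1 to 4. The origin of the array factors is unknown. It served as an alternative.

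Of 45018 spots, 1639 controls and the spots flagged as outliers were left out. Log2 intensities had the 75th percentile of each array subtracted, and spots of a probe were averaged. A probe was tested if at least 4 of 8 arrays had it well above background (26480 of 41174), 41 of them with a missing value on some array. Accessions were named through the RefSeq table of GRCm38.p6 (26690 probes, 18217 genes, none with several symbols, 14484 probes unnamed here). Coordinates are given for the printed RefSeq promoter stretches only, since the array design used another build. Psme2b and pseudogenes with the same prefix had no matched probe, and hybridisation of pseudogene transcripts was not tested.

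Fasted and satiated hearts were compared in limma 3.58.1 with lmFit and eBayes (R 4.3.3, with data.table, version 1.17.8), two-sided, Benjamini-Hochberg over all probes. Within-array ratios were added as further probes of that fit. Figures used matplotlib 3.10.9. The fit was tested on simulated data. The alternatives were normexp with an offset of 50 (on the median spot signal in place of the planned mean signal), quantile or median scaling, other filters, both blocks, each slide alone, each heart left out, the mean of a gene's probes and the deposited ratios.

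Replicate numbers were checked for pairing. Same-numbered hearts deviated together from their group means, with correlations over probes of 0.459, 0.499, 0.341 and 0.503. Hearts of different number on the same slide correlated at 0.304 to 0.531. With the slide means taken out the same-number correlations were -0.0783 and 0.0468. The rule used for pairing (every pair over 0.1) was met, but hearts of different number on the same slide met it too. Within a slide the numbers showed no pairing. The replicate block was kept as an alternative fit.

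Values per heart are given, per subcomplex, for up to 4 called genes by smallest p or else for the single smallest, for genes with probes that disagree in call, for Psmb5 to Psmb10 and for Psme1 to Psme4. Up to 4 called genes are named per list outside the members. Members, lists and this rule were chosen with earlier results of these data known. A result of a list outside the members is not reported here.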

Additional observations from a re-analysis of the deposited data

Results flagged for a closer look

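In 4 of 100 tests, 1 heart lay far from the other 3 of its group, by a gap above Dixon's critical value as a share of the group's range. Chance gives about 5% of such tests. Psme2 was at 5.17 in fasted heart 3, against 5.002 for the nearest other fasted heart (gap 0.873 of the range). Psme3 was at 2.69 in satiated heart 1, the heart with skeletal muscle transcripts, against 2.27 (0.922). Psmd9 was at -0.29 in satiated heart 3, against -0.38 (0.907). Psma8 was at -1.57 in fasted heart 3, against -2.29 (0.954).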

How the results depend on the processing

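With 4 hearts per group, the number of members past the threshold moved with the settings while directions mostly did not. Over all probes 5501 were called, 8976 with the replicate block, 9770 with the slide as a block, 3275 of 41174 with dim probes kept, 2952 on slide 1 alone, none on slide 2 alone (limma, 7320 at an unadjusted p under 0.05) and 3445 to 4950 with 1 heart left out. Members called higher numbered 11 with the replicate block, 12 with the slide as a block, 3 with dim probes kept, 1 on slide 1 alone, 0 on slide 2 alone (limma, 9 unadjusted) and 3 to 8 with 1 heart left out. Members called lower numbered 7, 8, 0 (limma, 6 unadjusted), 1 and 0 (limma, 5 unadjusted) under the same settings in the same order, and 0 to 3 with 1 heart left out, the 0 being without satiated heart 4 (5 unadjusted). Of all genes, 16.9% were higher and 19.2% lower with the replicate block, and 18.6% and 20.9% with the slide as a block. On slide 1 alone they were 5.23% and 6.27%, and with 1 heart left out 6.6% to 9.33% and 7.32% to 10.7%. Slide 1 alone called Psmd4 higher and Psmb10 lower. The replicate block changed, besides the calls given in the report with its values, no other call of a member's brightest probe. Among other probes it also called the second probes of Psmc4 (adjusted p = 0.047), Psmd2 (0.0206) and Psmc3ip (0.0238). Of the ratios, Psmb10 over Psmb7 missed the threshold with dim probes kept (-0.63, adjusted p = 0.0575) and on slide 2 alone (-0.68, 0.165), and ranged from -0.68 to -0.51 with 1 heart left out. The Psme1 and Psme2 mean over Psme4 passed with the slide as a block (-0.30, 0.0247). Differences near 0 changed sign: Psmb6 on slide 2 alone (0.11) and from -0.086 to 0.072 with 1 heart left out, Psmb7 on slide 1 alone (-0.059) and Psme4 from -0.23 to 0.026 with 1 heart left out. The calls of Psma7, Psmc6 and Psmb8 were also lost in the authors' deposited ratios (adjusted p = 0.0669, 0.0803 and 0.0736), in which Psmb10 passed (0.0283). Scaling moved the share of higher calls among all called probes between 48.5% and 52.9%. The cause of these changes was not tested. The detection limit was higher on slide 2, where fewer probes were above background.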
